A study of Mus musculus with 8 samples.

Results

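Blood endothelial cells were picked out of 2 single-cell RNA libraries of sorted mouse intestinal tissue, 1 from the small and 1 from the large intestine. A barcode, the tag that stands for 1 droplet, was kept where it held at least 500 genes and at most 20% mitochondrial counts. Members were chosen by measured values: a kept barcode was called a member where Plvap and Flt1 together reached at least 5 unique molecular identifiers (UMIs, each counting 1 captured RNA molecule) and Mmrn1 stayed at 2 UMIs or fewer. Plvap encodes the protein of the diaphragms that span the pores of fenestrated capillaries, Flt1 is a receptor for vascular endothelial growth factor (VEGF), and Mmrn1 is a transcript of lymphatic endothelium. The rule found 36 members among 2756 kept barcodes of the small intestine (1.31%, exact 95% interval 0.917% to 1.80%) and 91 among 6188 of the large intestine (1.47%, 1.19% to 1.80%), 127 of 8944 in all. The members were compared with a lymphatic set, the kept barcodes with at least 3 Mmrn1 UMIs (355 in the small and 211 in the large intestine), and with the remaining set, all other kept barcodes (2365 and 5886).

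The series measured 8 libraries from C57BL/6 mouse intestine: the 2 sorted tissue libraries, 4 Visium sections (2 of small and 2 of large intestine, technical duplicates cut at 10 µm) and 2 libraries of passage 1 small intestinal organoids, 1 grown alone and 1 in coculture. For the tissue libraries, live cells were sorted with enrichment for LGR5+ stem cells and for lymphatic endothelial cells carrying CD31, PDPN and LYVE1. Wild-type C57BL/6 mice and Lgr5-eGFP-ires-CreERT2 mice on that background, in which green fluorescent protein marks LGR5 cells, were used for sorting; the age, sex and number of mice behind each library are not given in the sources used here. Blood endothelium was not a target of the sort, CD31 is the product of the endothelial gene Pecam1, and the shares above describe the sorted libraries rather than the tissue. With 1 library per tissue there was no replicate, so no p-value is given, and tissue and library cannot be told apart.

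Blood vessels of the gut wall bring oxygen to the epithelium, carry absorbed nutrients away and let leukocytes enter the mucosa. Arteries branch into capillaries, which drain into veins, and each segment has its own transcripts. The mucosal capillaries are fenestrated, and their endothelium also sends growth factors and chemokines to neighbouring cells. Lymphatic endothelium is a sister lineage that takes up interstitial fluid and dietary fat and is kept distinct by the transcription factor Prox1.

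Levels are given as CPM, the summed UMIs of a gene in a set scaled to 1000000 UMIs of that set. Where a pair of values is given, the small intestine comes first. The deposited tissue libraries held 78482770 and 142501907 UMIs in 8842 and 8646 barcodes, of which 25 were shared between the libraries, none of them a member. The gene minimum removed 3708 and 1553 barcodes and the mitochondrial limit another 2378 and 905, and without that limit the rule gave 37 and 94 members. The median member held 4017.5 and 4059 UMIs, the median lymphatic barcode 3684 and 3171, and the median remaining barcode 18222 and 22883.

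The members were checked against defining genes of endothelium. The values of Plvap and Flt1 follow from the rule: their sum ran from 5 to 57 UMIs per member with a median of 13 in the small intestine, and from 5 to 150 with a median of 25 in the large intestine. At exactly 5 UMIs there was 1 member in each library, with 0 and 7 UMIs of Pecam1 and Cdh5 together. At 4 UMIs, just outside, there were 1 and 2 barcodes, all with UMIs of Pecam1 or Cdh5. Pecam1, an adhesion molecule of endothelial contacts that the rule did not use, was found in 32 of 36 and 88 of 91 members. Cdh5, the adherens junction cadherin of endothelium, was found in 25 and 78. As background, B cell barcodes (remaining barcodes with at least 3 UMIs of Cd79a and Ms4a1 and at most 2 of Epcam, median 2972 and 3885 UMIs) held Pecam1 in 33.1% and 24.3% and Cdh5 in 0.299% and 0%, so Pecam1 alone does not mark endothelium here. At least 4 of the 8 genes Pecam1, Cdh5, Esam, Emcn, Kdr, Tie1, Tek and Ptprb were present in 35 of 36 and 90 of 91 members. These 8 genes mark endothelium in general, and lymphatic barcodes carried several of them. Genes that separate the lineages were Esam, found in 86.1% and 95.6% of members and 0.845% and 8.06% of lymphatic barcodes, and Prox1, found in 0 and 1 members and 85.9% and 74.4% of lymphatic barcodes.

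Some members carried RNA of other cells. A member is called mixed here where it held any UMI of the leukocyte gene Ptprc or more than 2 UMIs of the epithelial gene Epcam. There were 5 mixed members in the small intestine, with 41.8% of all member UMIs, and 6 in the large intestine, with 14.2%. In the small intestine 1 mixed barcode of 18552 UMIs held 20 Ptprc, 284 Cd74 and 326 Lyz2 UMIs, no Pecam1, no Plvap and 5 Flt1 UMIs. Another 2 held 66 and 70 Epcam UMIs in 28556 and 42425 UMIs. Values are therefore given with and without the mixed members, which left 31 and 85. By the same criterion 25 of 355 and 28 of 211 lymphatic barcodes were mixed, with 36.4% and 52.6% of the UMIs of the lymphatic set. Levels of the lymphatic set below include them, and the values without mixed barcodes clean the members alone unless both sets are named. Cleaning both sets was added after the data were seen, and its ratio is given where it took a call described here across the threshold. Some genes, among them Angpt2 of the small intestine, then had too few counts to be compared.

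Of the marker lists for other cells, the lymphatic list (7 genes) summed to 54.0 and 111 CPM in members against 11895 and 12118 CPM in the lymphatic set. Mmrn1 is in this list and in the rule for both sets, and without it the sums were 54.0 and 108 CPM against 8134 and 9484 CPM. Prox1, Pdpn and Reln were at 0 in small intestinal members, and Pdpn and Reln in large intestinal members. The macrophage list (8 genes) fell from 1569 and 507 CPM to 30.9 and 29.2 CPM once mixed members were left out. The epithelial list (12 genes) went from 11953 and 1725 CPM to 5224 and 1119 CPM. Its median share per member, 0.400% and 0.123% of UMIs over all members, lay below the 0.442% and 0.192% of lymphatic barcodes, but the summed level of the lymphatic set was 77565 and 8260 CPM (5757 and 1910 CPM without its mixed barcodes). Pericyte and smooth muscle genes summed to 288 and 273 CPM (495 and 316 CPM without mixed members), and 1 and 3 members held at least 10 UMIs of the pericyte gene Rgs5. B and plasma cell genes summed to 472 and 567 CPM, with Cd79a and Ms4a1 at 0 in both libraries. In the lymphatic set they summed to 5889 and 3687 CPM. Without its mixed barcodes they summed to 655 and 7228 CPM, a fall in the small and a rise in the large intestine. T, NK and innate lymphoid genes were at 0 in the small intestine, with 1 of 8 genes detected in the large. Fibroblast, erythrocyte and glial lists each summed to 100.1 CPM or less over all members and to 112 CPM or less without mixed members. The part that such RNA plays in the values below was not tested.

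**Figure D1:**
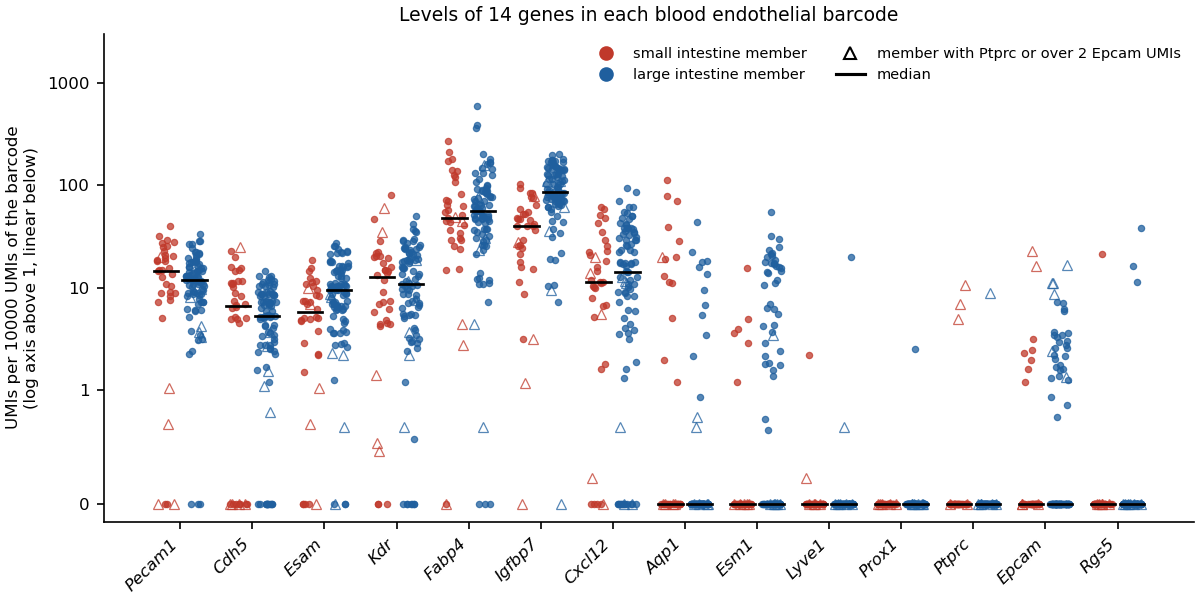
Each point is 1 member of the small (red) or large (blue) intestine, triangles are mixed members and black bars are medians; the vertical axis gives UMIs of the gene per 10000 UMIs of the barcode, on a log scale above 1. Pecam1, Cdh5, Esam, Kdr, Fabp4, Igfbp7 and Cxcl12 were present in most members, Lyve1 and Prox1 were at 0 in nearly all, and Aqp1 and Esm1 were present in a minority.

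The 17 lists of genes by role held 224 genes without the rule's own, among them junction proteins, receptors, ligands, transporters and transcription factors. A gene was compared where the mean CPM of both sets gave an expected count of at least 10 in each, and it was called higher or lower where the ratio of CPM reached 1 or -1 on the log2 scale. A gene that is nearly absent outside the members passed this filter only because members carried it, so the counts describe the members and support nothing beyond that. Against the remaining set, 112 of 124 compared role genes were higher and 4 lower in the small intestine, where 27.7% of all 3338 compared genes were higher and 6.77% lower. In the large intestine 142 of 167 were higher and 15 lower, where 28.3% of all 6439 compared genes were higher and 16% lower. Of 121 role genes compared in both libraries, 102 were higher in both. The 4 lower in both were Stmn1, Mki67 and Top2a, genes of dividing cells, and Tfrc, the transferrin receptor. Without mixed members the counts were 102 of 110 higher and 7 lower in the small intestine (40.3% and 19.5% of all genes) and 138 of 162 higher and 14 lower in the large (30.1% and 16.6%).

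Against the lymphatic set, which shares the endothelial lineage, fewer role genes stood out. In the small intestine 71 of 141 were higher and 20 lower, where 18.7% of all 3702 compared genes were higher and 10.4% lower. In the large intestine 105 of 174 were higher and 21 lower, where 14.1% of all 6670 compared genes were higher and 12% lower. Leaving out mixed members gave 74 of 128 higher and 18 lower (20.1% and 9.93% of all genes) and 107 of 171 higher and 21 lower (16% and 12.1%). Of 137 role genes compared in both libraries, 61 were higher and 9 lower in both. Those 9 were Nrp2, Flt4, Nr2f2, Reln, Rspo3, Igfbp5, Col18a1, Stab1 and Cldn5. Without mixed members Cldn5 of the large intestine no longer passed the threshold, and with both sets cleaned all 9 passed in both libraries. Cleaning both sets gave 63 of 128 higher and 21 lower in the small intestine (12.9% and 13.5% of all 2457 compared genes) and 86 of 171 higher and 24 lower in the large (12.6% and 11.6% of 6069).

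**Figure D2:**
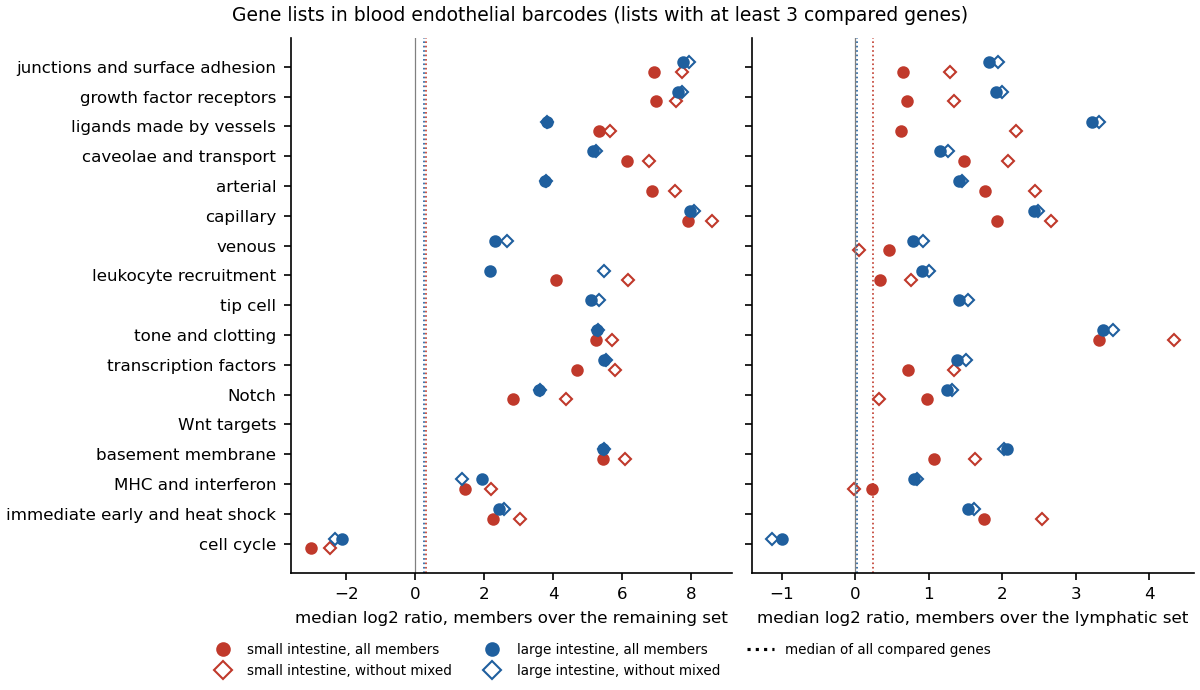
Each point is the median log2 ratio of a role list in members over the remaining set (left) or over the lymphatic set (right), for all members (filled) and without mixed members (open), and dotted lines mark the median of all compared genes. Junction, receptor and capillary lists lie furthest right against the remaining set, the tone and clotting list lies furthest right against the lymphatic set in the small intestine, and the cell cycle list lies left of 0.

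Junction and adhesion genes hold neighbouring endothelial cells together. Against the remaining set 9 of 10 compared genes were higher in the small intestine and 11 of 11 in the large, with median log2 ratios of 6.91 and 7.77. Pecam1 stood at 985 and 1129 CPM (1615 and 1209 CPM without mixed barcodes), at 351 and 266 CPM in the lymphatic set and at 5.69 and 2.17 CPM in the remaining set. It ran from 0 to 24 UMIs per member with a median of 4 in the small intestine and from 0 to 27 UMIs per member with a median of 5 in the large. Cdh5 stood at 558 and 538 CPM (919.7 and 593 CPM without mixed barcodes) against 345 and 184 CPM in the lymphatic set. Both endothelial sets thus carried these genes, and Pecam1 was called higher in members of both libraries. The small intestinal log2 ratio of Cdh5 over the lymphatic set, 0.69, passed the threshold only where members alone were cleaned, at 1.42. With both sets cleaned the Cdh5 ratios were 0.84 and 0.74, under the threshold in both libraries.

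Esam and Jam2, adhesion molecules of the immunoglobulin family, separated members from the lymphatic set. Esam was at 463 and 947 CPM (726 and 1051 CPM without mixed barcodes) in members and 1.58 and 14.8 CPM in the lymphatic set, and its log2 ratios over the lymphatic set were 8.20 (95% interval 6.61 to 10.50) and 6.00 (95% interval 5.32 to 6.77). After each barcode was thinned to 2000 UMIs, which kept 29 and 78 members, Esam was found in 72.4% and 89.7% of members, in 0.717% and 2.84% of lymphatic barcodes and in 0.931% and 0.315% of epithelial barcodes, the remaining barcodes with at least 5 Epcam UMIs (median 28769 and 27578 UMIs). The unthinned shares of members were 86.1% and 95.6%. Jam2 was at 261 and 250.3 CPM (425 and 285 CPM without mixed barcodes) in members and 0 and 1.64 CPM in the lymphatic set. Cd34, a sialomucin of vascular endothelium, was at 265 and 684 CPM (433 and 729.6 CPM without mixed barcodes) against 3.16 and 10.7 CPM. Emcn, a second sialomucin, differed less from the lymphatic set, at 477 and 1074 CPM (781 and 1160.1 CPM without mixed barcodes) against 435 and 304 CPM.

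Cldn5, a tight junction claudin, was the exception in the list. It was lower in members than in the lymphatic set, at 117 and 273 CPM (193 and 319 CPM without mixed barcodes) against 593 and 588 CPM, with log2 ratios of -2.34 (95% interval -2.96 to -1.78) and -1.11 (95% interval -1.39 to -0.84). Only 7 members of each library held a Cldn5 UMI, although Cdh5 was present in most. Without mixed members they were -1.62 and -0.89, and the large intestinal one did not pass the threshold. With both sets cleaned they were -2.20 and -1.79. In the large intestine 3 members carried 90.1% of the 131 Cldn5 UMIs of unmixed members. One of these, with lymphatic transcripts, held 65, and without it the level of all members was 140 CPM and the log2 ratio -2.07 (164 CPM and -1.85 without mixed members).

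Growth factor receptors sense VEGF, angiopoietins, semaphorins and bone morphogenetic proteins. All 14 compared genes of the list were higher than in the remaining set in the small intestine and all 16 in the large, with medians of 6.97 and 7.61. Kdr, the main VEGF receptor of vessels, was at 809 and 1237 CPM (1206 and 1318 CPM without mixed barcodes) in members, 686 and 319.7 CPM in the lymphatic set and 1.24 and 0.417 CPM in the remaining set. Ptprb, the endothelial receptor phosphatase VE-PTP, was at 1583 and 1270.5 CPM (2535 and 1367 CPM without mixed barcodes) in members and 256 and 156 CPM in the lymphatic set.

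The neuropilins, co-receptors of VEGF and semaphorins, divided the 2 endothelial sets. Nrp1 was at 724 and 985 CPM (1159 and 1099 CPM without mixed barcodes) in members against 8.43 and 8.22 CPM in the lymphatic set, a log2 ratio of 6.42 (95% interval 5.68 to 7.27) in the small and 6.90 (95% interval 6.01 to 7.97) in the large intestine. Nrp2 went the other way, at 175 and 159 CPM (232 and 170.2 CPM without mixed barcodes) against 926 and 385 CPM. Flt4, the receptor for VEGF-C that marks lymphatic vessels, was at 40.5 and 66.8 CPM (38.6 and 73 CPM without mixed barcodes) in members and 1108 and 518 CPM in the lymphatic set. After thinning, Flt4 was found in 2 of 29 and 5 of 78 members, with 0 of 317 and 0 of 201 B cell barcodes and 0.429% and 0.0484% of epithelial barcodes as background, and unthinned in 7 of 36 and 22 of 91 members. Without mixed members the thinned count was 1 of 25 in the small intestine, too few to set against the background.

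Receptors of bone morphogenetic proteins were compared next. Acvrl1, known as ALK1, was at 175 and 373 CPM (286 and 423 CPM without mixed barcodes) against 31.6 and 49.3 CPM in the lymphatic set, and was called higher in both libraries. Its co-receptor Eng was at 436 and 722 CPM (711 and 769 CPM without mixed barcodes) against 239 and 162 CPM, with log2 ratios of 0.87 and 2.16, of which the small intestinal one was 1.57 with members cleaned and stood at the threshold with both sets cleaned. Aplnr, the apelin receptor, was at 49.5 and 159 CPM (77.3 and 173 CPM without mixed barcodes) with 0 UMIs in both lymphatic sets.

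The promoters of role genes that were higher in both libraries were searched for the letters ACAGGAA and CCGGAAG, which are bound by transcription factors of the ETS family, a family to which the endothelial factors Erg and Fli1 belong. Of the 102 genes, 68 matched the RefSeq promoter table (build GRCm38.p6) with 89 promoters of 300 bases, 250 before and 50 after the annotated start. ACAGGAA on either strand was in 5 of 89 promoters (5.62%), against 8.67% of all 32851 promoters in the table. CCGGAAG was in 4 (4.49%), against 8.86% of all. Both words hold GGAA, and a match of one cannot overlap a match of the other. Neither word was thus more common in these genes than in all promoters, and a match describes letters and not a bound site. The 250 bases before the start of 3 genes with a match are shown, the sialomucin Emcn, the angiopoietin co-receptor Tie1 and the stem cell factor Kitl, with the matches in capitals on the strand of the gene, so that TTCCTGT is ACAGGAA on the opposite strand.
Emcn (chr3:137340828-137341077, plus strand, matches at -173 and -67 from the start): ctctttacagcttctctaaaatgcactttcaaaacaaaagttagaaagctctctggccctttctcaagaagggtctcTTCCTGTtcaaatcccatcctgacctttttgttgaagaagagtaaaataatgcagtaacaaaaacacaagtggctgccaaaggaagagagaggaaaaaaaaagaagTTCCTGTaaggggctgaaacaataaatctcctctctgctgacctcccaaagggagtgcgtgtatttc
Tie1 (chr4:118489850-118490099, minus strand, match at -209): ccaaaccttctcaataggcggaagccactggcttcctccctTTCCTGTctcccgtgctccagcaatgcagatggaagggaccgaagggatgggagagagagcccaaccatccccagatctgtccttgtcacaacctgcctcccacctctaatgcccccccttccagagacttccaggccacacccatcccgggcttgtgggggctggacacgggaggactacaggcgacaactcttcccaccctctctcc
Kitl (chr10:100015571-100015820, plus strand, match at -77): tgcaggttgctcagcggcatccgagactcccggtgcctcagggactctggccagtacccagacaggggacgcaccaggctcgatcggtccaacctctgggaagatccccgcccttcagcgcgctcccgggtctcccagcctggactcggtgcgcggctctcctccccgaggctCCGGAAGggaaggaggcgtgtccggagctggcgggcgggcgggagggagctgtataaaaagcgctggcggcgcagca
Emcn carried the only promoter of the 89 with 2 matches, and Tie1 stood at 157 and 207 CPM (247 and 226 CPM without mixed barcodes) in members and 229 and 118 CPM in the lymphatic set.

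Ligands made by vessels reach pericytes, leukocytes and epithelium. Against the remaining set all 5 compared ligands were higher in the small intestine and all 13 in the large. Cxcl12, a chemokine that attracts CXCR4-bearing cells, was at 1232 and 1767 CPM (1939.8 and 1960.3 CPM without mixed barcodes) in members, 64.3 and 45.2 CPM in the lymphatic set and 10.4 and 18.5 CPM in the remaining set. It ran from 0 to 46 UMIs per member with a median of 4 in the small intestine and from 0 to 75 UMIs per member with a median of 6 in the large. After thinning, 75.9% and 75.6% of members held Cxcl12, against 15.4% and 9.93% of lymphatic and 0.143% and 0.363% of epithelial barcodes. Unthinned, the share of members was 86.1% and 83.5%.

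Kitl, the stem cell factor that binds the receptor KIT, was at 436 and 390.1 CPM (634 and 416 CPM without mixed barcodes) in members, 12.1 and 41.9 CPM in the lymphatic set and 50.9 and 60.8 CPM in the remaining set. Its log2 ratio over the lymphatic set was 5.17 (95% interval 4.50 to 5.89) in the small and 3.22 (95% interval 2.76 to 3.69) in the large intestine. Thinned to 2000 UMIs, 82.8% and 51.3% of members held it, against 9.95% and 10.8% of epithelial barcodes, so part of the remaining set carried it as well. Without thinning 86.1% and 73.6% of members held it. Pdgfb, the ligand that recruits pericytes, was at 157 and 223 CPM (232 and 253 CPM without mixed barcodes) against 12.6 and 14.8 CPM in the lymphatic set. Edn1, the vasoconstrictor endothelin-1, was at 130.4 and 77.2 CPM (162 and 75.4 CPM without mixed barcodes) against 1.58 and 0 CPM. The Notch ligand Jag2 was at 85.4 and 56.3 CPM (131 and 63.2 CPM without mixed barcodes) against 5.79 and 1.64 CPM. These 5 ligands were thus carried by members at higher levels than by lymphatic barcodes in both libraries.

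A second group of ligands was lower in members or not found in them. Rspo3, an R-spondin that amplifies Wnt signals in crypts, had 0 UMIs in all 127 members, which allows up to 16.6 CPM in the small and 7.70 CPM in the large intestine. Its level in the lymphatic set was 235 and 51.8 CPM. Wnt2 and the secreted glycoprotein Reln also had 0 UMIs in members, against 142 and 13.1 CPM and 1305 and 672 CPM in the lymphatic set. After thinning, Rspo3 was found in 0 of 29 and 0 of 78 members and in 41.2% and 16.3% of lymphatic barcodes. Angpt2, an antagonist ligand of Tek, was at 4.5 and 14.6 CPM (7.73 and 17 CPM without mixed barcodes) against 89 and 18.9 CPM, lower in the small intestine and not compared in the large because its expected count was too small. The small intestinal level came from a single UMI, and with both sets cleaned Angpt2 had too few counts to be compared in either library.

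**Figure D3:**
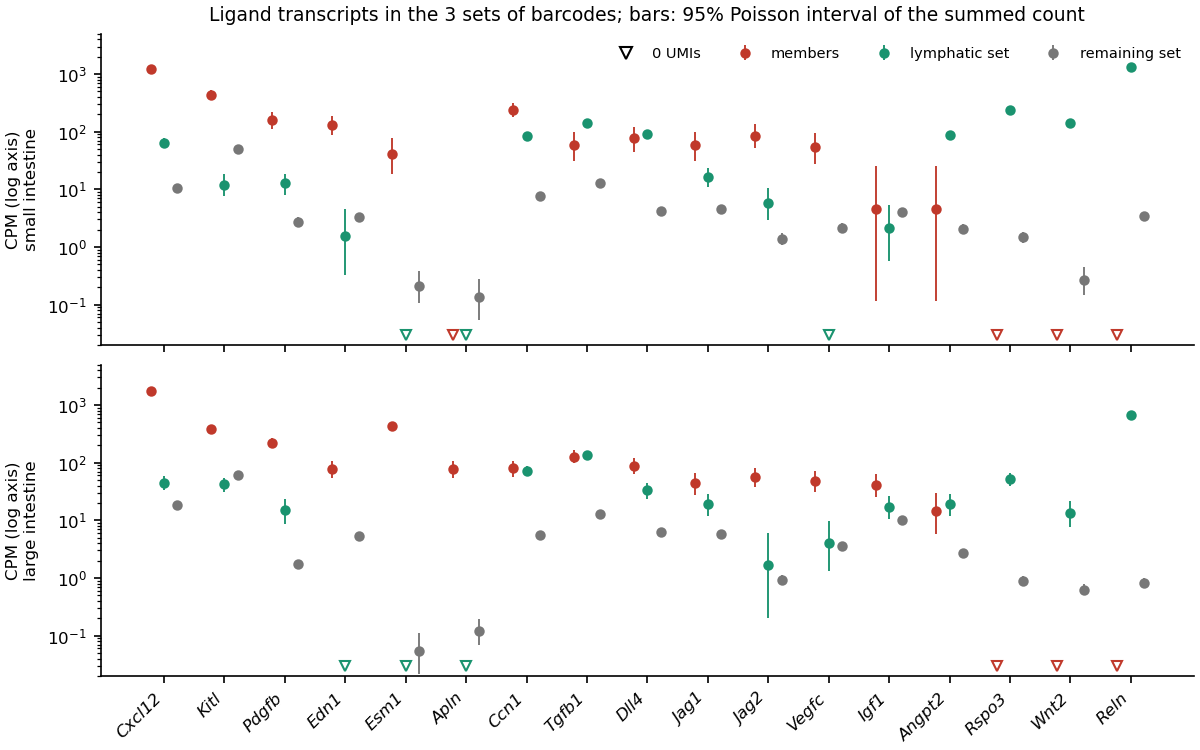
Points are the CPM of 17 ligands (log axis) in members (red), the lymphatic set (green) and the remaining set (grey) of the small (top) and large (bottom) intestine, with exact 95% Poisson intervals that cover counting error only, and open triangles mark 0 UMIs. Cxcl12, Kitl and Pdgfb are highest in members of both tissues, and Rspo3, Wnt2 and Reln are at 0 in members.

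Transport genes build caveolae, the flask-shaped pits of capillary endothelium, and move fatty acids and water. Of 17 compared, 15 were higher than in the remaining set in each library and Tfrc was lower in each. Fabp4, a fatty acid binding protein, was at 5810.2 and 7800.2 CPM (9653 and 8656 CPM without mixed barcodes) in members, against 366 and 9.86 CPM in the lymphatic set and 4.66 and 1.62 CPM in the remaining set. It ran from 0 to 226 UMIs per member with a median of 17.5 in the small intestine and from 0 to 469 UMIs per member with a median of 25 in the large. The fatty acid carrier Cd36 was at 1007 and 428 CPM (1584 and 469 CPM without mixed barcodes) against 33.2 and 4.93 CPM, and the prostaglandin transporter Slco2a1 at 301 and 486 CPM (456 and 555 CPM without mixed barcodes) against 6.85 and 2.47 CPM. All 3 genes were called higher than in the lymphatic set in both libraries.

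The caveolar genes were shared more evenly. Cav1, the coat protein of caveolae, was at 675 and 1043 CPM (1136 and 1124 CPM without mixed barcodes) in members and 579 and 468 CPM in the lymphatic set. Cavin2 was at 863 and 1471 CPM (1422 and 1544 CPM without mixed barcodes) against 2844 and 2036 CPM, with log2 ratios of -1.72 and -0.47 (-1.57 and -1.32 with both sets cleaned). The large intestinal ratio passed the threshold only with both sets cleaned, while that of Cav1 went from 1.15 to 0.35. Gpihbp1, which carries lipoprotein lipase across capillary endothelium, was at 256 and 355 CPM (417 and 413 CPM without mixed barcodes) against 361 and 360 CPM and passed the threshold in neither library. Lpl itself was found in 5 small intestinal members, and 111 of its 123 UMIs came from the mixed barcode with macrophage transcripts.

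Genes of vascular tone and clotting regulate blood flow and keep the vessel lumen open. All 9 compared genes were higher than in the remaining set in the small intestine and all 13 in the large. Against the lymphatic set 8 of 10 were higher in the small intestine, and in the large 12 of 14 were higher with Ece1, the endothelin converting enzyme, lower at a log2 ratio of -1.04 (-0.97 with members and -1.85 with both sets cleaned). Vwf, the platelet-binding factor, was at 157 and 102 CPM (263 and 99.7 CPM without mixed barcodes) in members and 0 and 2.47 CPM in the lymphatic set. Ace, the angiotensin converting enzyme, was at 355 and 378 CPM (471 and 396 CPM without mixed barcodes) against 7.38 and 17.3 CPM. Entpd1, an ectonucleotidase that degrades ATP, was at 139 and 207 CPM (209 and 212 CPM without mixed barcodes) against 3.69 and 6.57 CPM. Klf2, a transcription factor induced by blood flow, was at 899 and 2115 CPM (1399 and 2301 CPM without mixed barcodes) against 195 and 226 CPM.

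Among transcription factors 17 of 17 compared genes were higher than in the remaining set in the small intestine and 20 of 21 in the large. The ETS factor Erg was at 112 and 117 CPM (193 and 122 CPM without mixed barcodes) in members and 108 and 35.3 CPM in the lymphatic set. Sox17, an arterial and capillary factor, was at 126 and 211 CPM (193 and 224 CPM without mixed barcodes) with 0 UMIs in both lymphatic sets, log2 ratios of at least 6.32 and at least 6.42 when the lymphatic count is set to 3 per set. Sox18, shared by both lineages, was at 108 and 161 CPM (178 and 178 CPM without mixed barcodes) against 98.5 and 55.1 CPM. With both sets cleaned the large intestinal log2 ratios of Erg and Sox18 over the lymphatic set were 0.81 and 0.75, under the threshold. Epas1, the hypoxia-inducible factor HIF-2α, was at 796 and 607 CPM (1275 and 639.6 CPM without mixed barcodes) against 37.9 and 41.9 CPM. Tcf15 was at 148 and 227 CPM (232 and 246 CPM without mixed barcodes) against 13.7 and 6.57 CPM. Nr2f2, which directs venous and lymphatic identity, was lower than in the lymphatic set at 4.5 and 131 CPM (7.73 and 153 CPM without mixed barcodes) against 654 and 397 CPM.

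Basement membrane genes make the sheet on which endothelium rests. All 11 compared genes in the small intestine and all 14 in the large were higher than in the remaining set, with medians of 5.46 and 5.45. Col15a1 was at 202 and 461 CPM (325 and 499 CPM without mixed barcodes) in members and 2.63 and 2.47 CPM in the lymphatic set, while Col18a1 was at 4.5 and 14.6 CPM (7.73 and 14.6 CPM without mixed barcodes) against 153 and 217 CPM. The related collagens that give rise to the fragments restin and endostatin thus went opposite ways in both libraries. Sparcl1 was at 976 and 1059.8 CPM (1515 and 1133 CPM without mixed barcodes) against 1.58 and 18.1 CPM. Igfbp5, a binding protein of insulin-like growth factors, was at 0 and 16.7 CPM (0 and 19.5 CPM without mixed barcodes) against 228 and 1339 CPM.

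By the rule for named genes, the 10 genes highest over the remaining set in both libraries were Thrsp, Fabp4, Grrp1, Ptprb, Unc45b, C1qtnf9, Adgrl4, Ctla2a, Kdr and Tcf15. Their lower log2 ratio of the 2 libraries ran from 10.40 for Thrsp to 9.31 for Tcf15. C1qtnf9, a secreted protein of the C1q and TNF family, was at 202 and 73 CPM (332 and 85.1 CPM without mixed barcodes) in members with 0 UMIs in both lymphatic sets. The 10 highest over the lymphatic set were Ly6c1, Clu, Jam2, Lims2, Nrp1, Palmd, Sox17, Col15a1, Plscr2 and Nkx2-3. Ly6c1, a surface antigen, was at 1299.7 and 2814 CPM (2087 and 3043 CPM without mixed barcodes) in members and 0 and 2.47 CPM in the lymphatic set. Nkx2-3, a homeobox factor of gut and spleen vessels, was at 193 and 607 CPM (301 and 623 CPM without mixed barcodes) against 2.63 and 0.822 CPM. The 5 lowest were Ccl21a, Reln, Lyve1, Fgl2 and Prox1. Ccl21a, the chemokine of lymphatic vessels, was at 4.5 and 2.09 CPM (7.73 and 2.43 CPM without mixed barcodes) in members and 2044 and 5004 CPM in the lymphatic set.

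Immediate early genes respond within minutes to stimulation of a cell. Against the remaining set 11 of 12 compared genes of this list were higher in the small intestine and 15 of 16 in the large, and against the lymphatic set 11 of 12 and 12 of 16. Junb was at 985 and 1170.3 CPM (1283 and 1238 CPM without mixed barcodes) in members, 207 and 243 CPM in the lymphatic set and 133 and 122 CPM in the remaining set. Egr1 was at 1016 and 719.7 CPM (1499 and 719.9 CPM without mixed barcodes) against 181 and 176 CPM in the lymphatic set. It was found in 26 of 36 and 40 of 91 members, so its level was uneven between members. Proliferation genes went the other way: 3 of 4 compared were lower than in the remaining set in the small intestine and 9 of 10 in the large. Mki67, carried by cycling cells, was found in 2 and 4 members, at 18 and 22.9 CPM (30.9 and 19.5 CPM without mixed barcodes) against 172 and 208 CPM in the remaining set.

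Genes of class II antigen presentation depended on the mixed members. In the small intestine H2-Ab1 was at 823 CPM over all members, 83.6% of it from 1 barcode, and at 23.2 CPM without mixed members, against 354 CPM in the remaining set. Without mixed members H2-Aa, H2-Ab1, H2-Eb1 and Cd74 were all lower than in the remaining set in both libraries. Cd74, the invariant chain, was at 54.1 and 99.7 CPM there. Class I genes did not turn with the mixed members. H2-D1, a class I heavy chain, was at 1119.8 and 1519 CPM (1522 and 1617 CPM without mixed barcodes), with log2 ratios over the remaining set of 1.81 and 1.25.

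The interferon-induced genes Isg15 and Gbp2 passed the threshold as lower than in the lymphatic set in the small and not in the large intestine, a difference that was not tested. Gbp2, a guanylate-binding protein, was at 67.5 and 100.1 CPM (116 and 109 CPM without mixed barcodes) in members and 258 and 39.4 CPM in the lymphatic set, with log2 ratios of -1.93 (95% interval -2.78 to -1.20) and 1.34 (95% interval 0.74 to 1.95). With both sets cleaned they were -1.76 and 0.77, and the large intestinal one was under the threshold. The Gbp2 level of the members differed less between the libraries than that of the lymphatic sets. The surface antigen Ly6a was at 1327 and 4122 CPM (2040.3 and 4417 CPM without mixed barcodes) against 15.3 and 83.8 CPM and was higher in members of both libraries.

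Notch genes pattern arteries and restrain sprouting. Against the remaining set 3 of 4 compared genes were higher in the small intestine and 6 of 8 in the large, and none was lower. Notch4, the endothelial receptor, was at 80.9 and 62.6 CPM (124 and 68.1 CPM without mixed barcodes) in members and 10 and 2.47 CPM in the lymphatic set. Of the Wnt target list, Sox17 was the single gene with enough counts to be compared. Leukocyte recruitment genes were higher than in the remaining set for 4 of 5 compared genes in the small and 6 of 7 in the large intestine, but 11 and 9 of the 16 genes, with Sele, Vcam1 and Cxcl10 among them, had too few counts to be compared. The intercellular adhesion molecule Icam2 was at 139 and 279.5 CPM (224 and 316 CPM without mixed barcodes) against 110.1 and 82.2 CPM in the lymphatic set.

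Members differed among themselves in segment genes. Of the arterial list 6 of 6 compared genes were higher than in the remaining set in the small intestine and 7 of 8 in the large, of the capillary list 7 of 8 and 9 of 9, and of the venous list 2 of 2 and 7 of 7. After thinning, a UMI of the capillary list was found in 28 of 29 small and 76 of 78 large intestinal members, of the arterial list in 24 and 62, and of the venous list in 13 and 40. At least 2 UMIs were found in 25 and 69, 16 and 42, and 6 and 19 members. In thinned B cell barcodes a UMI was found in 2.52% and 11.9% for the capillary, 1.26% and 0% for the arterial and 6.31% and 4.98% for the venous list. In epithelial barcodes it was found in 27.6% and 18.9%, 18.2% and 16.4%, and 6.66% and 16.5%. All 3 lists had a UMI in 12 and 28 members, and no segment is assigned to any member. The thinning left out 7 and 13 shallower members.

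Single genes were less evenly spread, and 5 of them were examined after their values were seen: Aqp1, Ackr1, Sema3g, Esm1 and Nr2f2. These groups were defined by measured values in unmixed members, so their levels are given as descriptions, with no test. Members with at least 5 Aqp1 UMIs numbered 8 of 31 in the small and 6 of 85 in the large intestine, and those with at least 2 Esm1 UMIs 2 and 30. No member of either library was in both. Groups of these sizes would share few members even if placed at random, so this absence is not read as exclusion. At least 2 Sema3g UMIs were found in 7 and 4 members, at least 2 Ackr1 UMIs in 2 and 3, and at least 3 Nr2f2 UMIs in 0 and 10. None of the 5 was reached by 15 and 44 members. Depth differed between these groups: in the large intestine the median was 7526.5 UMIs with Aqp1 against 3833 in the others, 3541 with Esm1 against 4105, 8096.5 with Nr2f2 against 3643 and 8277 with Ackr1 against 3862.5.

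Aqp1 encodes a water channel. In the small intestine 3 members held 70.5% of the 244 Aqp1 UMIs of unmixed members. The 8 Aqp1 members there carried Cd36 at 2682 CPM against 935 CPM in the other unmixed members, Cav1 at 2017 CPM against 615 and the homeobox gene Meox2 at 291 CPM against 36.9. The deepest of the 8, with 13071 and 8637 UMIs, held 33 and 42 Cd36 UMIs, the most in the group. The 2 Ackr1 members and 1 Sema3g member of the small intestine were among the 8. Of the members with a Meox2 UMI, 7 of 8 in the small and 6 of 7 in the large intestine also held Aqp1. In the large intestine the 6 Aqp1 members carried Fabp4 at 24328 CPM against 6211 CPM in the others and Gpihbp1 at 1316 CPM against 273, but Kdr at 378 CPM against 1465 and Nrp1 at 270.3 CPM against 1229. Esm1 was at 0 UMIs in these 6 members and at 195 UMIs in the other unmixed members. Of these 6, 5 also reached 3 Nr2f2 UMIs and 2 reached 2 Ackr1 UMIs, and 3 of them held 1097 of their 1350 Fabp4 UMIs. The 10 Nr2f2 members, which include those 5, carried Fabp4 at 15557 CPM against 6578 CPM in the others, Gpihbp1 at 778 CPM against 304 and Kdr at 568 CPM against 1544, so the values of the overlapping groups are not separate results.

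Esm1, a secreted proteoglycan of sprouting tip cells, was found in 40 of 85 unmixed large intestinal members and 6 of 31 small intestinal ones. The 30 large intestinal members with at least 2 UMIs carried Igfbp3 at 1029.7 CPM against 313 CPM in the others, the Notch target Hey1 at 192 CPM against 64, the gap junction gene Gja4 at 284 CPM against 132 and Cxcl12 at 2882 CPM against 1534. Aqp1 was at 15.4 CPM against 395 CPM, and Ackr1 and Cldn5 had 0 UMIs among them. Apln, the apelin ligand of tip cells, had 0 UMIs in the small intestine and was found after thinning in 6 of 78 large intestinal members (11 of 91 unthinned), with 0 of 201 B cell and 1 of 4130 epithelial barcodes as background. It did not follow Esm1: a UMI was found in 2 of the 30 members with at least 2 Esm1 UMIs and in 8 of the other 55, and 3 members held 71% of its UMIs.

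Ackr1, a chemokine-scavenging receptor of postcapillary venules, was limited to 2 and 4 unmixed members. In the large intestine the 3 members with at least 2 UMIs had 0 Cxcl12 UMIs, against 806 in the other 82. They also had 0 UMIs of the capillary gene Rgcc. They carried Vwf at 534 CPM against 65.6 CPM in the others and Lrg1 at 1068 CPM against 123, and held all 14 UMIs of Madcam1, the addressin through which lymphocytes enter the gut. All 3 also reached 3 Nr2f2 UMIs. Genes of the venous list did not all go this way. In the 10 Nr2f2 members, which include these 3, Ephb4 was at 31.5 against 91.8 CPM in the others. Icam1 was at 31.5 against 31.6 CPM. The 10 Nr2f2 members of the large intestine held all 131 Cldn5 UMIs of unmixed members, spread over 7 barcodes, and all 48 Ackr1 UMIs. A single one of the 10 held 16 Lyve1, 2 Prox1 and 1 Mmrn1 UMIs, which were all the UMIs of these genes in unmixed members, with 9 Nr2f2, 65 Cldn5, 31 Plvap, 0 Flt1 and 0 Fabp4 UMIs. It carried 22 of the 50 UMIs of the lymphatic list in these members. Another 3 of the 10 held 84 Rgs5 UMIs. Lymphatic and pericyte RNA thus moved with this group, as did depth and the immediate early gene Egr1, at 1671 CPM against 433 CPM in the others (3238 CPM against 522 for the 3 Ackr1 members). Their part was not tested.

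Sema3g is a semaphorin of arterial endothelium. The 7 small intestinal members with at least 2 UMIs carried Fbln5, an elastic fibre protein, at 518 CPM against 45 CPM in the other unmixed members. They carried Gja4 at 296 CPM against 33.8, Edn1 at 395 CPM against 56.3 and the transcription factor Mecom at 543 CPM against 135. One of the 7 held all 14 Rgs5 UMIs of unmixed small intestinal members, and 1 of the 4 large intestinal Sema3g members held 47 of 84, so pericyte RNA moved with these groups and its part was not tested. Of the arterial list without Sema3g, 9 of 11 genes had at least 10 UMIs in unmixed members, and 6 of these 9 were at least 2 times as high in these 7 members as in the other 24, with none as much lower. In the 4 Sema3g members of the large intestine 4 of 9 were as much higher and 2 as much lower.

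**Figure D4:**
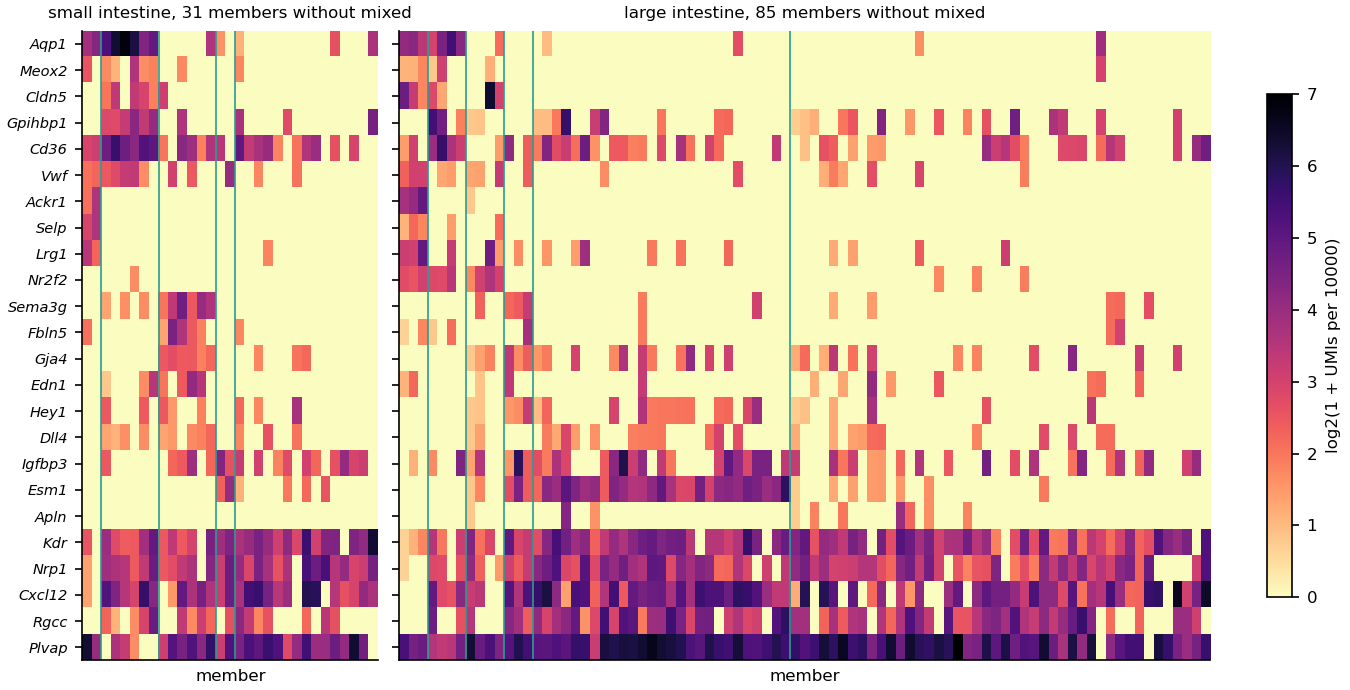
Columns are the 31 small and 85 large intestinal unmixed members and rows are genes, coloured by log2 of 1 plus UMIs per 10000; teal lines divide members by the first minimum they reach in the order Ackr1, Aqp1, Nr2f2, Sema3g, Esm1 and none. No column reaches the minima of both Aqp1 and Esm1, although some columns hold UMIs of both. Cldn5 of the large intestine lies in the Nr2f2-bearing columns, and Cxcl12 and Rgcc are blank in the Ackr1 columns of the large intestine.

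Members of the small and large intestine were then compared with each other. Over all members 324 of 3826 compared genes (8.47%) were higher in the small and 397 (10.4%) higher in the large intestine, against 10.6% and 13.2% for the same contrast in the remaining set. Of 150 role genes, 16 were higher in the small and 37 in the large intestine. Without mixed members these were 17 and 16 of 134, beside 6.66% and 9.18% of all 2386 compared genes. The median log2 ratio of the role genes was -0.50 over all members and -0.02 without mixed members, and -0.43 for the same contrast in the remaining set.

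The 10 genes that the ranking put highest in small intestinal members, with Fabp1, Apoa1, Rbp2, Smim24, Ccl25, Lpl and Guca2b among them, were uneven between members: for each, 1 barcode held 55.7% to 97% of the UMIs. Fabp1, the fatty acid binding protein of enterocytes, fell from 2725 to 77.3 CPM once mixed members were left out. None of the 10 was among the 10 highest without mixed members. For the large intestine 5 of 10 were in both rankings: Esm1, Nr2f2, Ptprr, Ramp3 and Sncg.

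Without mixed members the small intestine was higher in Aqp1, at 1886 against 275 CPM, a log2 ratio of 2.78 (95% interval 2.45 to 3.11). Over all members the values were 1115 and 242 CPM. A member held a median of 0 Aqp1 UMIs in both tissues, and 13 of 31 against 12 of 85 unmixed members held any. The lymphatic sets went the same way, at 1903 and 400.2 CPM, and with both sets cleaned the ratios of members to lymphatic barcodes were -0.57 and -1.48. After thinning Aqp1 was found in 37.9% and 14.1% of members, 92.1% and 61% of lymphatic and 10.8% and 6.10% of epithelial barcodes, and unthinned in 38.9% and 15.4% of members. Fbln5 was at 193 against 29.2 CPM (log2 ratio 2.73 (95% interval 1.68 to 3.85)) and Sema3g at 255 against 43.8 CPM (2.54 (95% interval 1.67 to 3.46)). The secretoglobin Scgb3a1 was at 796 against 168 CPM, and Meox2 at 131 against 31.6 CPM. Cd36 was higher by 1.75 (95% interval 1.46 to 2.05). After thinning it was found in 72.4% of small and 44.9% of large intestinal members, and unthinned in 77.8% and 53.8%, against 0.859% and 0.0484% of thinned epithelial barcodes.

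The large intestine was higher in Esm1, at 474 against 69.6 CPM, a log2 ratio of small over large intestine of -2.77 (95% interval -3.92 to -1.82). Over all members the ratio was -3.39. Thinned, Esm1 was found in 37.2% of large and 10.3% of small intestinal members, and unthinned in 45.1% and 16.7%, with 0 thinned lymphatic, epithelial or B cell barcodes in either library. Ramp3, which partners the calcitonin receptor-like receptor, was at 238 against 30.9 CPM (-2.95 (95% interval -4.85 to -1.54)). Nr2f2 was at 153 against 7.73 CPM, the latter from a single UMI, and at 134 CPM in the large intestine without the member with lymphatic transcripts. Igfbp7, an insulin-like growth factor binding protein found in 35 of 36 and 90 of 91 members, was at 9293 against 4367 CPM (-1.09 (95% interval -1.22 to -0.96)). It ran from 0 to 166 UMIs per member with a median of 33 in the large and from 0 to 52 UMIs per member with a median of 13.5 in the small intestine, so the tissues overlapped member by member.

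Several broad genes did not pass the threshold between tissues. Without mixed members Cxcl12 had a log2 ratio of -0.02 (95% interval -0.23 to 0.19), Kdr of -0.13 (95% interval -0.40 to 0.13) and Fabp4 of 0.16 (95% interval 0.06 to 0.25). These intervals cover counting error only, since 1 library stood for each tissue.

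The same genes were read in the Visium sections, which the rule did not use and in which each spot collects RNA of whole tissue. In bulk RNA of this kind fewer endothelial cells and less RNA per cell cannot be told apart. Of 220 compared role genes 41 were higher in the small intestinal sections and 23 higher in the large, beside 16.4% and 13.9% of all 16416 compared genes. Cdh5 was at 13 and 17.8 CPM in sections 1 and 2 of the small intestine, against 7.71 and 6.55 CPM in those of the large intestine. Pecam1, in the same order, was at 20.2 and 24.5 against 14.3 and 14.3 CPM. Both were thus higher in each small intestinal section than in either large intestinal one.

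Over all members, the 10 genes highest in small intestinal members were all higher in both small intestinal sections, and of the 10 highest in large intestinal members 9 were higher in both small intestinal sections and only Emp2 in both large ones. Of the 10 genes highest in small intestinal members without mixed barcodes, 8 were higher in both small intestinal sections than in either large intestinal section, and Fbln5 and Myo10 were lower. Aqp1 was at 47.1 and 47.4 against 23.7 and 25.6 CPM, in the same order as above, and sections hold the RNA of lymphatic vessels too. Scgb3a1 was at 2.18 and 1.76 against 0.727 and 0.456 CPM. C1qtnf9 was at 3.41 and 4.05 against 0.776 and 1.03 CPM. For these 3 genes the sections went the same way as the members. Most genes of the large intestinal rankings were higher in the small intestinal sections too, as were Pecam1 and Cdh5, so this direction is not particular to them. The share of all genes with this direction is not given here.

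Of the 10 genes highest in large intestinal members without mixed barcodes, 3 were higher in both large intestinal sections (Emp3, Upp1 and Fam167b) and 7 higher in both small intestinal ones. Esm1 was at 1.44 and 1.86 against 1.28 and 1.28 CPM. Ramp3 was at 2.75 and 3.82 against 1.53 and 1.78 CPM. The capillary gene Rgcc, whose log2 ratio between unmixed members was -1.41, was at 5.21 and 6.21 against 21.8 and 23.9 CPM, the same direction as in members. Cxcl12 was at 32.1 and 30.5 against 64.5 and 64.4 CPM, higher in the large intestine although the members did not differ by the threshold.

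**Figure D5:**
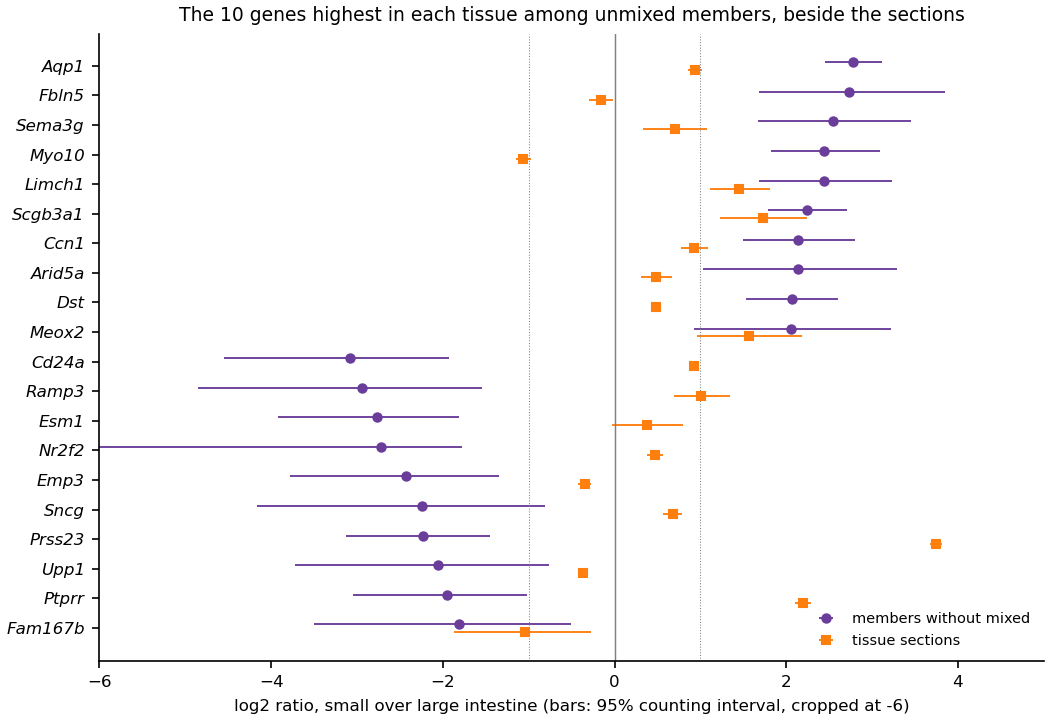
Points are log2 ratios of small over large intestine for the 10 genes highest in each tissue among unmixed members (purple) and for the same genes in the sections (orange), with 95% counting intervals. The section ratio lies on the same side of 0 as the member ratio for 8 of the first 10 genes and for 3 of the last 10.

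The organoid libraries hold cultured epithelium and were read as background. The control library (818 cells) had 9 Plvap, 9 Flt1, 22 Cdh5, 7 Kdr and 56 Pecam1 UMIs. The cocultured library (1233 cells) had 1 Plvap, 0 Flt1, 0 Cdh5, 0 Kdr and 24 Pecam1 UMIs. Pecam1 reached 1.21 CPM there at most, against 985 CPM or more in members.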

How the data were processed

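The deposited files held raw UMI counts per gene and barcode, which the authors made with Cell Ranger 6.0.1 (single cells) and Space Ranger 1.2.1 (Visium), per the file headers. The submitters' processing notes name mm10 as the genome build; the annotation release is not given in the sources used here. The 8 libraries were read as counts, with 32287 features in the tissue and 32285 in the other libraries. Members and lists were chosen with earlier results of these data known.

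UMIs were summed over the barcodes of a set and scaled to CPM. The 95% intervals cover counting error only; they are Poisson intervals for levels, Clopper-Pearson intervals for shares and conditional intervals of 2 Poisson counts for log2 ratios, all exact. Counts under 3 were set to 3 in a ratio, counted per set. The expected count of at least 10 was taken from the mean CPM of both sets; a CPM weighted by UMIs drops genes of the small member set. Depth was thinned to 2000 UMIs per barcode for shares. Visium spots with at least 500 UMIs were kept. No doublets were removed in the main values; Scrublet (scanpy 1.11.5) was an alternative. The ratio code was tested on simulated data. Python 3.11.15, numpy 2.4.6, scipy 1.17.1 and pandas 2.3.3 were used.

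Named genes were all list genes, the 10 highest over each set, the 5 lowest against the lymphatic set and the 10 highest in each tissue, the last also ranked without mixed members. Alternatives varied the rule of members, filters, scaling and spots. With 1 library per tissue no test was made. The organoids were used only as background. Some genes of the rule for named genes are not reported here.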

Additional observations from a re-analysis of the deposited data

Results flagged for a closer look

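Genes were singled out here where the ratio of members to another set passed the threshold one way in the small and the opposite way in the large intestine. The difference between the libraries was not tested, since there was 1 library per tissue. Against the remaining set, H2-Ab1 had a log2 ratio of 1.22 in the small and -1.12 in the large intestine, and H2-Aa 1.00 and -1.05. Against the lymphatic set, H2-Ab1 had 1.73 and -1.73, H2-Aa 1.48 and -1.72, and Cd74 1.55 and -1.91. One small intestinal barcode held 83.6% of the H2-Ab1, 83.2% of the H2-Aa and 74.2% of the Cd74 UMIs of members. Without mixed members the small intestinal levels were 23.2, 7.73 and 54.1 CPM, from 823, 670.1 and 1722 CPM. With mixed barcodes removed from members and the lymphatic set, Cd74 had -1.10 and -2.43 and H2-Ab1 had too few counts in the small intestine and -0.78 in the large.

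Gbp2, an interferon-induced GTPase, had a log2 ratio over the lymphatic set of -1.93 in the small and 1.34 in the large intestine (-1.76 and 0.77 with mixed barcodes removed from both sets). Its level was 67.5 and 100.1 CPM in members and 258 and 39.4 CPM in the lymphatic sets. Fbln5, an elastic fibre protein, had 1.86 and -1.46, with 46.2% of its small intestinal UMIs in 1 member, and levels of 117 and 25 CPM in members and 32.1 and 69 CPM in the lymphatic sets.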

How the results depend on the processing

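No paired analysis was possible because each tissue had 1 library, and the section numbers mark technical duplicates that do not tie small to large intestine. Limits in all comparisons were the single library per tissue, the 36 and 91 members, the mixed members, and counts of a few UMIs for many genes. The alternatives gave 24 to 48 members in the small and 80 to 97 in the large intestine. Leaving out the highest Scrublet scores removed 625 and 598 barcodes, of which 0 and 7 were members. Of the called single-gene values between the tissues, 29 of 70 were lost without mixed members, 37 of 67 with a minimum of 10 UMIs of Plvap and Flt1, and 33 of 99 with a mean over barcodes. Of those against the remaining set without mixed members, 3 of 132 in the small and 1 of 202 in the large intestine were lost. Against the lymphatic set 15 of 118 in the small intestine were lost, 11 of them with a change of sign, and 2 of 171 in the large. The lymphatic set also held mixed barcodes, and removing them from both sets, added after seeing the data, lost 10 of 116 in the small and 27 of 161 in the large intestine.

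Counts of called genes moved by over 1.5 times as follows. In the small intestine against the remaining set, 926 genes were higher and 226 lower. The lower count was 351 with at least 10 UMIs of Plvap and Flt1, 359 with members chosen by at least 3 UMIs of Pecam1 and Cdh5, 397 without mixed members and 661 with a mean over barcodes (828 higher). Against the lymphatic set, 693 higher and 385 lower became 394 and 196 with at least 10 UMIs of Plvap and Flt1, and 444 and 219 without mixed members, while 317 were higher with mixed barcodes removed from both sets. Between the tissues, 324 higher and 397 lower in the small intestine became 146 and 169, and 159 and 219, under the same changes. An expected count of at least 30 admits fewer genes: it gave 241 and 72 in the small and 758 and 446 (from 1825 and 1032) in the large intestine against the remaining set, 235 and 129 in the small and 440 and 269 (from 943 and 798) in the large against the lymphatic set, and 106 and 125 between the tissues. The UMI-weighted expected count, added after seeing the data, gave 255 higher and 395 lower in the small and 738 higher in the large intestine against the remaining set, and 368 higher in the small intestine against the lymphatic set. Without thinning, 85.7% and 96.7% of large intestinal members held Cdh5 and Pecam1, from 64.1% and 83.3%, since thinning removes UMIs. Apart from the expected counts and thinning, the cause was not tested.

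Of the role genes in sections, 41 were higher and 23 lower in the small intestine, with 30 to 50 and 21 to 23 when 1 section was left out.

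Some single genes changed sign, and those the text names are given here as log2 ratios. With at least 10 UMIs of Plvap and Flt1, small intestinal members against the remaining set had Fabp1 at -4.79, H2-Aa at -3.64 and H2-Ab1 at -3.72. They had, against the lymphatic set, Cd74 at -3.71, Epcam at -2.30, Guca2b at -3.12, H2-Aa at -3.15 and H2-Ab1 at -3.20. Against the large intestine they had Cd74 at -3.78, Epcam at -1.48, H2-Aa at -3.19, H2-Ab1 at -3.38 and H2-Eb1 at -2.75. Without mixed members, the small intestine had Fabp1 at -4.00, H2-Aa at -3.85 and H2-Ab1 at -3.93 against the remaining set. It had, against the lymphatic set, Cd74 at -3.45, Epcam at -2.52, Fabp1 at -0.16, Guca2b at -3.34, H2-Aa at -3.37, H2-Ab1 at -3.42, Lpl at -0.056 and Lyz2 at -2.88. With mixed barcodes removed from both sets, it had Lpl at -0.64 and Cd74 at -1.10 against the lymphatic set. With a mean over barcodes, the small intestine had Fabp1 at -0.93, H2-Aa at -2.51 and H2-Ab1 at -1.96, and the large intestine Fgl2 at -0.45, all against the remaining set. With members chosen by Pecam1 and Cdh5, the large intestine had Cd74 at 0.55, H2-Aa at 1.11, H2-Ab1 at 1.01 and H2-Eb1 at 1.16 against the remaining set. In the comparison with the lymphatic set it had Cd74 at 0.44, H2-Aa at 0.43, H2-Ab1 at 0.38, H2-Eb1 at 0.28 and Lyz2 at 0.20. Under that rule Lpl was at -0.86 in the small intestine against the lymphatic set, and Lyz2 at -0.97 between the tissues.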
